A study of Sus scrofa with 9 samples.

Results

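Splicing factor genes were followed through 3 stages of additional molar development in Wuzhishan miniature pigs. They were chosen by name: every probe set whose only gene symbol on the platform begins with SRSF, SF3A, SF3B, SNRP, HNRNP, PRPF or U2AF, or is TRA2A or TRA2B. This gave 94 of the 23999 probe sets tested. Where a gene had several, the one with the highest mean log2 signal over the 9 arrays stood for it, which left 58 of the 6765 genes with a symbol of their own. They comprised 13 SR proteins, 17 hnRNPs, 10 genes of the snRNP core (SNRP), 9 SF3 and U2AF genes and 9 PRPF genes. A probe set is the group of short probes on the array that reports 1 transcript, and its signal is a brightness with no absolute unit, so that levels are compared between arrays and never between genes.

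Total RNA came from additional molar germs with the dental lamina attached, dissected from the mandibles of embryos taken by caesarean section. At E50 the first additional molar (M1) was at the cap stage and the second (M2) had not started. At E60 M1 was at the bell stage and M2 was initiating, and at E70 M1 was at the late bell stage and M2 had changed little. No animal was treated or genetically altered, and 3 arrays labelled as biological replicates were hybridised per stage. Germs that shared a stage and a litter were pooled for RNA. The sources used here do not say whether the arrays of a stage stand for separate litters, so the p-values measure only the spread between these arrays.

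The spliceosome removes introns from pre-mRNA. It is built from small nuclear ribonucleoproteins (snRNPs), each an RNA with proteins, which in most of them include a ring of Sm proteins. The SF3A and SF3B complexes belong to the U2 snRNP, which recognises the branch point of the intron. U2AF marks the end of the intron for the U2 snRNP, and several PRPF proteins join or activate the U4/U6.U5 tri-snRNP. SR proteins bind exons and generally promote their inclusion, whereas many hnRNPs coat pre-mRNA and often oppose inclusion. All cells use this machinery, and the proportions of its regulators differ between tissues and stages.

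The E50 arrays stood apart from the other 6. The ratio of the 3′ to the 5′ control probe set of EF1A, a measure of how complete the labelled RNA was, lay between 49.3 and 55.8 at E50, between 1.42 and 1.56 at E60 and between 1.35 and 1.47 at E70. That of GAPDH lay between 29.7 and 42.2 at E50, between 6.98 and 9.24 at E60 and between 4.36 and 6.47 at E70, and that of ACTB between 165 and 2308 at E50, between 30.1 and 34.9 at E60 and between 22.9 and 26.3 at E70, so that the E70 and E60 arrays did not overlap in either. Hybridisation spike-ins had geometric means between 58370 and 66123 on the E50 arrays, between 4150 and 4268 on the E60 arrays and between 3086 and 3938 on the E70 arrays. Pearson correlations of log2 signals between arrays of a stage ranged over 0.605 to 0.683 for E50, 0.902 to 0.914 for E60 and 0.901 to 0.921 for E70. Stage and array quality cannot be told apart in any comparison with E50. The comparison of E70 with E60 does not use the E50 signals, although its error includes their spread, and the part of the GAPDH and ACTB ratios in it was not tested. On the log2 scale the 58 genes had a median SD of 0.34 (E50), 0.13 (E60) and 0.19 (E70), below that of all probe sets in each stage (1.03, 0.26 and 0.32). The genes were taken at their brightest probe set. At E50 93.1% of them and 35.1% of all probe sets were above background, as defined below, on all 3 arrays. The SDs are therefore not compared at like brightness, and the lower values are no result about these genes.

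Background was taken as the 95th percentile of 23 control probe sets on each array, and it lay between 77.1 and 378 at E50, between 37.6 and 54.3 at E60 and between 38.1 and 55.5 at E70. Of the 58 genes 54 were above it on all 9 arrays. The exceptions were HNRNPU, PRPF31, PRPF38B and U2AF2, each dim on at least 1 E50 array, and U2AF2 also on 1 E60 array. Of 11 measured tooth germ markers 4 were above background on all 3 arrays at E50, 4 at E60 and 6 at E70, with KLK4 below it on all arrays of E50 and E60 and DMP1 and DSPP below it on all arrays of E70. The summed signal of 23 skeletal muscle markers lay between 15466 and 18920 on E50 arrays, 5933 and 6450 on E60 arrays and 3098 and 3420 on E70 arrays. That of 12 macrophage and leukocyte markers lay between 7743 and 10501 on E50 arrays, 4090 and 4104 on E60 arrays and 1666 and 1853 on E70 arrays. Within this list C1QA went the other way, above background on no E50 array and on all 3 arrays of E60 and E70. Median summed signals at E50, E60 and E70 were 11974, 10961 and 19398 for the 11 tooth germ markers. Those of 6 blood markers were 3033, 3411 and 3934, and of 7 cartilage markers 1929, 1760 and 3754. Those of 12 endothelium markers were 5743, 4666 and 2737, and of 8 nerve and Schwann markers 4645, 3362 and 3822. The sums for blood and cartilage rose while most of their members did not. At E70 against E50 the median log2 change of the blood markers was -1.99, with HBB called as higher and ALAS2 and HBM as lower. That of the cartilage markers was -1.86, with HAPLN1 called as higher and ACAN as lower. In such bulk tissue, fewer cells of a type and less RNA per cell cannot be told apart. The part of these other cells in the results for splicing genes was not tested.

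Stages were compared with limma on log2 signals of all 9 arrays, and a gene was called when its Benjamini-Hochberg adjusted p-value, taken across the 23999 probe sets, was under 0.05. Over the 3 stages 19 of the 58 genes (32.8%) were called by the moderated F test, against 17.7% of all probe sets. The called genes were 5 SR proteins, 3 hnRNPs, 5 snRNP core genes, 5 SF3 and U2AF genes and 1 PRPF gene. The count was 10 to 12 when any E60 or E70 array was left out. The map of signals by array shows most SR proteins and hnRNPs low on the E50 arrays and high on the E60 and E70 arrays, with several snRNP core genes the other way round.

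**Figure D1:**
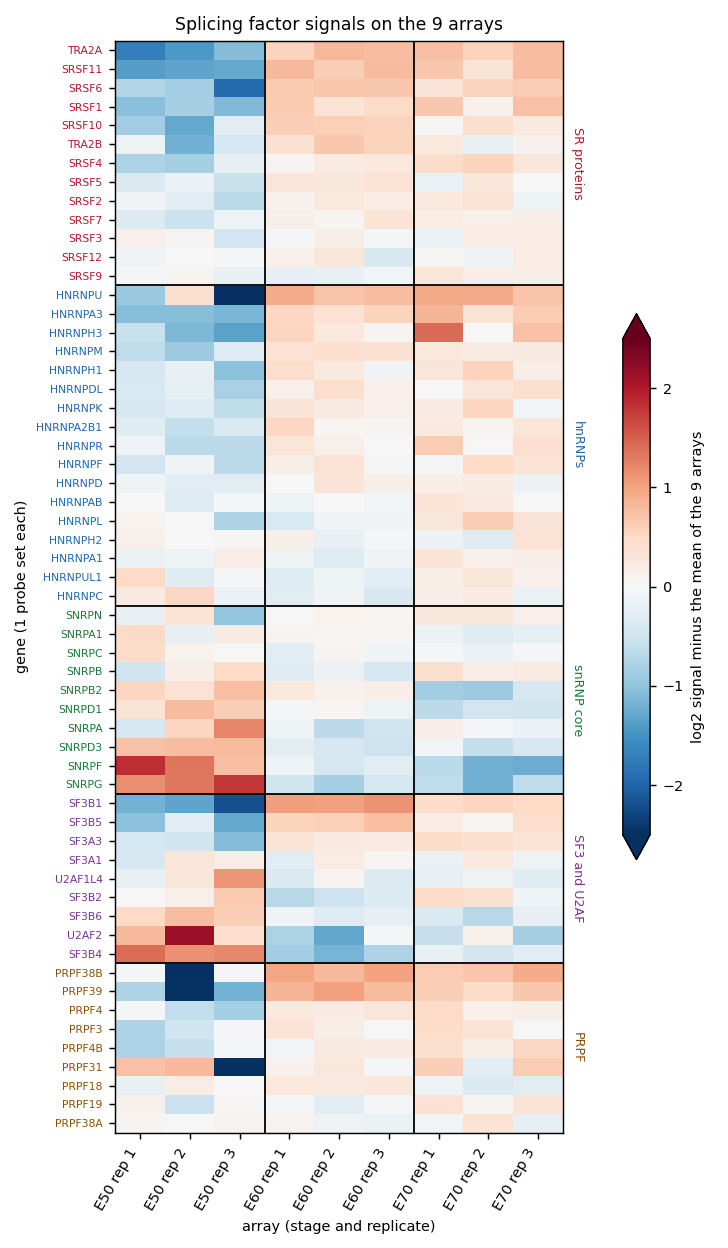
Log2 signal of the 58 splicing factor genes on each of the 9 arrays, minus the gene's mean over the 9 arrays, with red above and blue below the mean and colours saturating at 2.5. Rows are genes in 5 groups, sorted within a group by the change E60 minus E50, and columns run through the stages E50, E60 and E70. TRA2A and SRSF11 are blue on all 3 E50 arrays, SNRPF and SNRPG are red there, and the E60 and E70 columns resemble each other.

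At E60 against E50, 12 of the 58 genes rose and 5 fell, whereas 41 were not called. Of all probe sets 7.85% rose and 10.6% fell. The median change of the 58 genes was 0.45 on the log2 scale, against -0.18 for all probe sets. Many of all probe sets are dim, whereas each of the 58 is the brightest of its gene. With dim probe sets left out 16 of the 58 rose and 7 fell, against 14.0% and 13.7% of the 17111 kept. The median change relative to that of all probe sets was then 0.25, against 0.62 with all probe sets kept. The E60 and E50 arrays did not overlap for 29 genes that were higher and 9 that were lower, against 17.5% and 21.7% of all probe sets. Without any of the E60 arrays 7 genes rose and 2 or 3 fell. The split of calls depended on the scaling: with each array centred on its median it was 29 higher and 2 lower, when 19.5% of all probe sets were called as higher and 3.80% as lower and their median change was 0.60.

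SR proteins carried the most rises. Of 13 measured, 6 rose, 0 fell and 7 were not called at E60 against E50, when 7.85% of all probe sets rose. Of the 13 changes 12 were positive, with a median of 0.79. TRA2A, SRSF11, SRSF6, SRSF1, SRSF10 and TRA2B rose by 2.18-fold to 4.36-fold. Both vertebrate homologues of the fly sex determination gene transformer-2, TRA2A and TRA2B, were among them.

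TRA2A, which binds purine-rich exonic enhancers and promotes exon inclusion, had signals of 716, 862 and 1092 at E50, 3426, 4084 and 3995 at E60, and 3909, 3452 and 3963 at E70. Every E60 and E70 array lay above every E50 array, by at least 3-fold. The change at E60 against E50 was 2.12 ± 0.24 on the log2 scale (SE, limma adjusted p = 0.00254), or 4.36-fold. SRSF11, an SR-related protein found with U2AF and the snRNPs at the ends of introns, had 1955, 2023 and 2100 at E50, 8855, 7760 and 8800 at E60, and 8096, 6312 and 8631 at E70. Its E50 arrays were closely spaced and far below the rest, and its change at E60 against E50 was 2.06 ± 0.22 (SE, limma adjusted p = 0.00215), or 4.18-fold. Both calls held in all 20 alternative settings, with adjusted p of at most 0.0244 for TRA2A and 0.0199 for SRSF11.

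SRSF6, which binds exonic enhancers and takes part in constitutive and alternative splicing, had 1968, 1813 and 859 at E50, 5178, 5314 and 5246 at E60, and 4104, 4825 and 5053 at E70. The third E50 array was the lowest of the 9 and the E60 arrays were nearly equal. The change at E60 against E50 was 1.85 ± 0.34 (SE, limma adjusted p = 0.0119), or 3.61-fold. In a fit of the E60 and E50 arrays alone its adjusted p was 0.051 (0.0007 to 0.051 over the alternatives).

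SRSF1, the founding SR protein, which helps the U1 snRNP to find the start of the intron and also acts in mRNA decay and translation, had 1752, 2022 and 1672 at E50, 5668, 4556 and 5051 at E60, and 5784, 3873 and 5990 at E70. The E60 and E50 arrays did not overlap, and the E70 arrays spread more widely than the E60 arrays. The change at E60 against E50 was 1.49 ± 0.25 (SE, limma adjusted p = 0.00953), or 2.80-fold. With array weights, which give the more variable E50 arrays less influence, its adjusted p was 0.0606 (0.000243 to 0.0606 over the alternatives).

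The other SR calls were less stable. SRSF10, a splicing repressor in its dephosphorylated form, rose by 1.40 ± 0.29 (SE, limma adjusted p = 0.0178), and leaving out any of the 3 E60 arrays ended the call, with adjusted p up to 0.0675 (0.0014 to 0.241 over the alternatives). TRA2B, a partner of TRA2A in exon inclusion, rose by 1.12 ± 0.32 (SE, limma adjusted p = 0.0486). Its call was lost when any array other than the first E50 array was left out, with adjusted p up to 0.144 (0.00765 to 0.144 over the alternatives). The 7 SR proteins not called at E60 against E50 changed by -0.10 (SRSF9) to 0.79 (SRSF4). SRSF3, whose product also acts in mRNA export, had 13934, 13472 and 9121 at E50, 12270, 14350 and 12379 at E60, and 11447, 14506 and 14495 at E70, so that its stages overlapped.

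**Figure D2:**
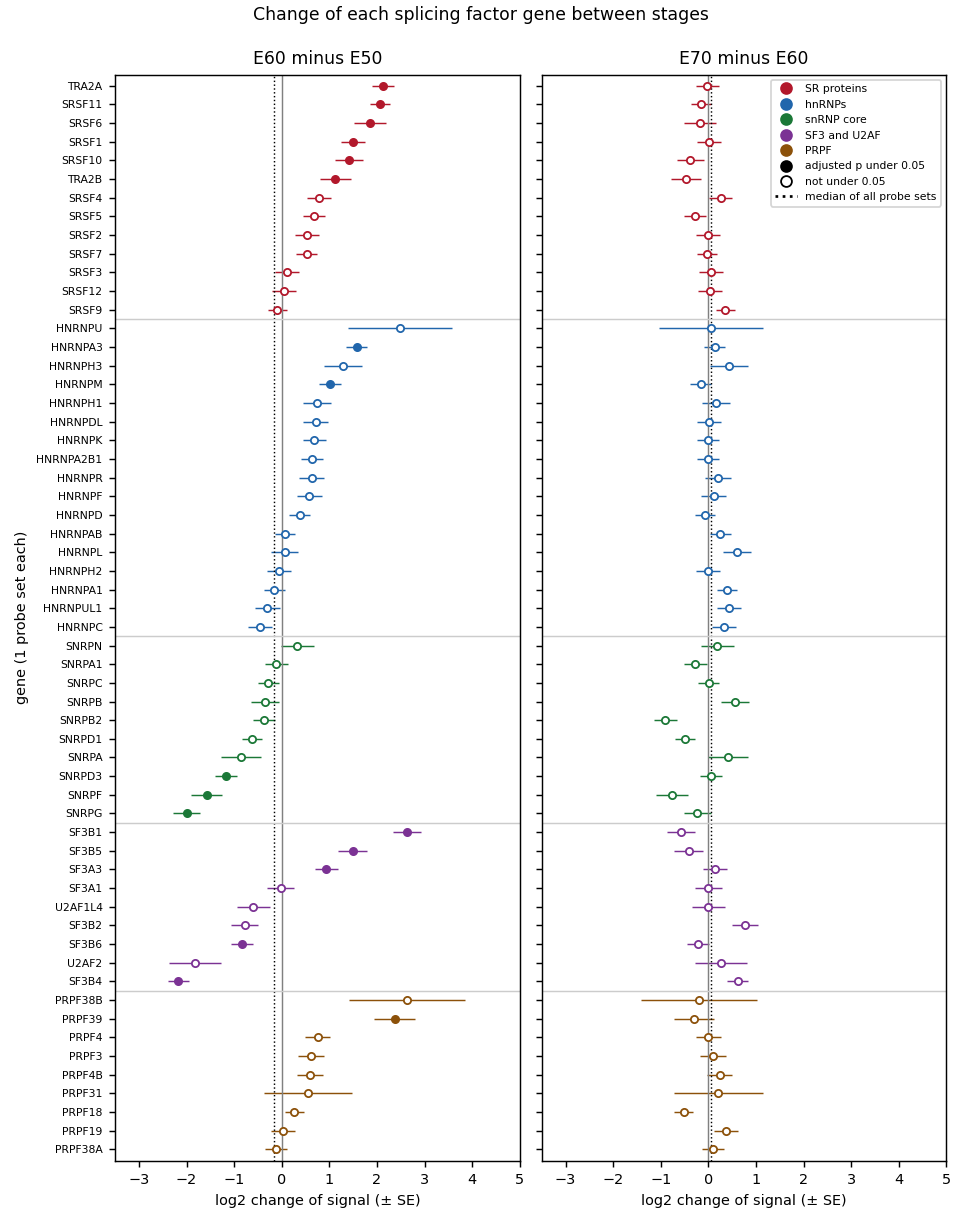
Change of log2 signal (x axis) with its limma standard error for each of the 58 genes (y axis), E60 minus E50 on the left and E70 minus E60 on the right. Filled points have adjusted p under 0.05, colours give the groups and the dotted line is the median of all probe sets (-0.18 and 0.05). On the left 12 filled points lie right of 0 and 5 left of it, whereas no point on the right is filled.

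Among the hnRNPs 2 of 17 (11.8%) rose at E60 against E50, near the 7.85% of all probe sets, 0 fell and 15 were not called. Their median change was 0.62, and 13 of 17 changes were positive. For 11 genes every E60 array lay above every E50 array, against 17.5% of all probe sets. HNRNPA3, a relative of HNRNPA1 and HNRNPA2B1 that binds mature and pre-mRNA, had signals of 2344, 2344 and 2222 at E50, 7031, 6322 and 7248 at E60, and 8882, 6226 and 7629 at E70. The E50 arrays differed little among themselves and lay far below the other 6. Its change at E60 against E50 was 1.57 ± 0.22 (SE, limma adjusted p = 0.0051), or 2.98-fold, and the call held in all 20 alternatives, with adjusted p of at most 0.03.

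HNRNPM, a regulator of alternative exons, had 2358, 1945 and 2941 at E50, 4728, 4917 and 4773 at E60, and 4388, 4235 and 4276 at E70. All E60 arrays were above all E50 arrays and all E70 arrays lay between. Its change at E60 against E50 was 1.01 ± 0.22 (SE, limma adjusted p = 0.0218), or 2.02-fold. Leaving out any of the 3 E60 arrays ended the call, with adjusted p up to 0.0811 (0.000848 to 0.0811 over the alternatives).

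The 15 hnRNPs not called at E60 against E50 changed by -0.46 (HNRNPC, which measures and packages nascent transcripts) to 2.47 (HNRNPU, a nuclear matrix protein). HNRNPU had 189, 484 and 15.9 at E50, of which 1 array was above background, 685, 593 and 613 at E60, and 690, 693 and 588 at E70. The spread of its E50 arrays was wide, and the SE of its change at E60 against E50 was 1.09. HNRNPA1, the best known repressor of exon inclusion, had 11018, 11582 and 14130 at E50, 11384, 9885 and 11531 at E60, and 15783, 13516 and 13865 at E70. Its E60 and E50 arrays overlapped, and its change between them was -0.16 ± 0.21 (SE). HNRNPH1, HNRNPDL, HNRNPK, HNRNPA2B1, HNRNPR and HNRNPF had changes of 0.58 to 0.74 with no overlap between the E60 and E50 arrays, and none passed the test. With eBayes fitted with a trend and robustly, 9 of the 17 hnRNPs and 10 of the 13 SR proteins rose, when 10.9% of all probe sets rose and 11.7% fell.

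The snRNP core differed in direction. At E60 against E50, 3 of its 10 genes fell, 0 rose and 7 were not called, when 10.6% of all probe sets fell and 7.85% rose. Of the 10 changes 9 were negative, with a median of -0.50 that became 0.27 with each array centred on its median. With that centring 1 of the 10 fell, against 3.80% of all probe sets. The 3 called genes, SNRPG, SNRPF and SNRPD3, encode proteins of the Sm ring. Relative to the median of all probe sets the core's median change was -0.33, against 0.96 for SR proteins and 0.80 for hnRNPs. With quantile normalization these values were -0.57, 0.67 and 0.67, and with dim probe sets left out they were -0.70, 0.59 and 0.425.

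SNRPG had signals of 19207, 21306 and 29239 at E50, 6123, 4829 and 6317 at E60, and 5538, 3741 and 5535 at E70. Every E50 array was at least 3-fold above every later array. The change at E60 against E50 was -2.00 ± 0.28 (SE, limma adjusted p = 0.00516), a ratio of 0.250, and the call held in all 20 alternatives with adjusted p of at most 0.0319. SNRPF had 1988, 1415 and 931 at E50, 507, 416 and 462 at E60, and 351, 240 and 237 at E70. Its 3 stages did not overlap, with E50 highest and E70 lowest. The change at E60 against E50 was -1.58 ± 0.33 (SE, limma adjusted p = 0.0182), a ratio of 0.334, and leaving out any of the 3 E60 arrays ended the call, with adjusted p up to 0.0701 (0.00384 to 0.198 over the alternatives).

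SNRPD3 had 9334, 9637 and 9791 at E50, 4630, 4224 and 3925 at E60, and 5389, 3715 and 4296 at E70. The E50 arrays lay within a narrow band above all later arrays. The change at E60 against E50 was -1.17 ± 0.22 (SE, limma adjusted p = 0.0134), a ratio of 0.443. The call was lost when the second or the third E60 array was left out, with adjusted p up to 0.0562, and with array weights. With median centring it was also lost, with adjusted p = 0.313 (0.000273 to 0.313 over the alternatives).

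The 7 other core genes changed by -0.86 (SNRPA, which binds the U1 RNA) to 0.33 (SNRPN). SNRPN encodes a close relative of the Sm protein of SNRPB and is imprinted in human and mouse. It had 2326, 3385 and 1338 at E50, 2666, 2814 and 2770 at E60, and 3256, 3234 and 2912 at E70, so that the E50 arrays spanned those of the other stages. SNRPC, a U1 protein, and SNRPA1, a U2 protein, overlapped between E60 and E50.

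**Figure D3:**
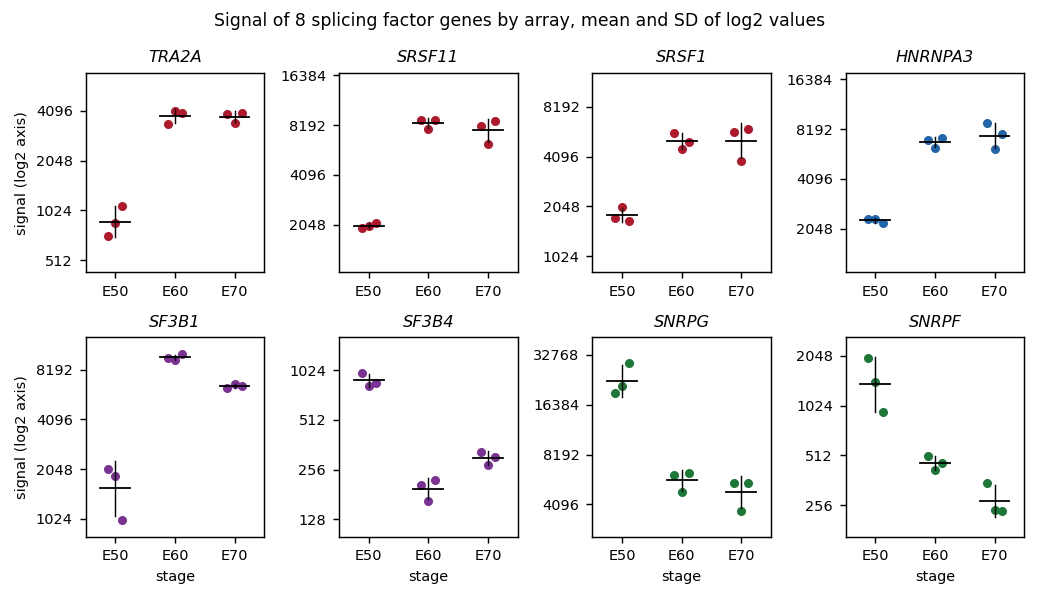
Signal (y axis, log2 axis spanning a 16-fold range in each panel) of 8 splicing factor genes on the 3 arrays of each stage (x axis). Points are arrays, horizontal lines are means of log2 values and vertical lines are ± 1 SD (n = 3). The E50 points of TRA2A, SRSF11, SRSF1, HNRNPA3 and SF3B1 lie below all later points, and those of SF3B4, SNRPG and SNRPF above them.

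The SF3 and U2AF genes moved in both directions at E60 against E50. Of 9 measured, 3 rose, 2 fell and 4 passed no test, when 7.85% of all probe sets rose and 10.6% fell. SF3B1, the large subunit that clamps the branch point, had signals of 2037, 1854 and 1015 at E50, 9563, 9410 and 10103 at E60, and 6350, 6716 and 6489 at E70. The E60 arrays were the highest, the E70 arrays lay between and the E50 arrays were far below. Its change at E60 against E50 was 2.63 ± 0.30 (SE, limma adjusted p = 0.00262), or 6.19-fold, and with the mean of the gene's probe sets its adjusted p was 0.069 (2.3e-05 to 0.069 over the alternatives).

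SF3B4, which contacts pre-mRNA just upstream of the branch point, had 978, 824 and 861 at E50, 206, 166 and 220 at E60, and 327, 272 and 306 at E70. It was high at E50, lowest at E60 and between at E70, with no overlap. Its change at E60 against E50 was -2.17 ± 0.22 (SE, limma adjusted p = 0.00197), a ratio of 0.222, and the call held in all 20 alternatives, with adjusted p of at most 0.0212. SF3B1 and SF3B4 are parts of the same complex and changed in opposite directions.

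SF3B5, a small subunit of the complex, had 620, 1038 and 516 at E50, 1840, 1900 and 2111 at E60, and 1422, 1286 and 1710 at E70. Every E60 array lay above every E50 array, and its change was 1.49 ± 0.30 (SE, limma adjusted p = 0.0168), or 2.81-fold. Leaving out any of the 3 E60 arrays ended the call, with adjusted p up to 0.0625, also the highest of the alternatives (lowest 0.00155). SF3A3, which joins SF3A to the U2 snRNP, had 1537, 1470 and 974 at E50, 2612, 2466 and 2399 at E60, and 2840, 2781 and 2617 at E70. All its E50 arrays lay below all later arrays, and its change was 0.94 ± 0.24 (SE, limma adjusted p = 0.0364), or 1.92-fold. Leaving out any E60 or E70 array ended that call, with adjusted p up to 0.121 (0.00365 to 0.121 over the alternatives).

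SF3B6, which sits near the branch point adenosine, had 6312, 7545 and 6800 at E50, 4193, 3533 and 3843 at E60, and 3461, 2737 and 3855 at E70. The E50 arrays were above all later arrays, and its change at E60 against E50 was -0.84 ± 0.23 (SE, limma adjusted p = 0.0417), a ratio of 0.560. The call was lost in 13 of 20 alternatives, among them leaving out the second E50 array or any E60 or E70 array, with adjusted p up to 0.139 (0.00274 to 0.888 over the alternatives). The genes that passed no test were SF3A1 at -0.03 ± 0.28, SF3B2 at -0.78 ± 0.28, U2AF1L4 at -0.60 ± 0.35 and U2AF2 at -1.82 ± 0.54 (SE). U2AF2 encodes the large U2AF subunit, which binds the polypyrimidine tract, and its signals of 213, 538 and 164 at E50, 70.8, 49.7 and 119.9 at E60, and 81.7, 133 and 68.5 at E70 were near background.

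Among the PRPF genes 1 of 9 (11.1%) rose at E60 against E50, near the 7.85% of all probe sets, 0 fell and 8 were not called. PRPF39, a component of the U1 snRNP, had 748, 230 and 558 at E50, 2305, 2579 and 2216 at E60, and 1947, 1762 and 2038 at E70. The second E50 array was far below the others, and all E50 arrays were below all later arrays. Its change was 2.37 ± 0.42 (SE, limma adjusted p = 0.011), or 5.16-fold, and with the mean of the gene's probe sets its adjusted p was 0.176 (0.000828 to 0.176 over the alternatives). The other 8 changed by -0.12 (PRPF38A) to 2.63 (PRPF38B), the higher value resting on an E50 array that was far below background. PRPF3, PRPF4 and PRPF31, which belong to the U4/U6 snRNP, had changes of 0.61 ± 0.27, 0.75 ± 0.27 and 0.55 ± 0.93 (SE).

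Of the 58 genes 20 had several probe sets, with 36 beside the ones described. At E60 against E50, 24 of the 36 changed in the same direction as the brightest one and 12 in the opposite direction. Among the 22 that were above background on all 9 arrays the split was 17 and 5. SRSF11 had 4 others, all positive (1.67 to 3.35), SRSF6 had 5, all positive (0.49 to 1.53), and TRA2B had 4, all positive (0.66 to 2.02). The other probe set of SNRPG gave -1.88, close to the -2.00 of the brightest.

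Other genes had probe sets that disagreed. SRSF1 gave 2.41 and -0.38 on its other probe sets, against 1.49 on the brightest. SRSF10 gave 1.25, 4.35, -1.35 and -2.32, of which the second was called as higher (limma adjusted p = 0.0248, above background on 7 arrays), the third was called as lower (limma adjusted p = 0.0151) and the fourth was not above background on any array. HNRNPA2B1, a packaging protein of nuclear RNA, gave 0.10 and -1.35 against 0.64 on the brightest, and the -1.35 was called (limma adjusted p = 0.0108). SF3B1 gave -0.64 ± 0.66 (SE) on its other probe set, which was dim on 1 array, and SNRPN gave -0.75 ± 0.22 (SE) against 0.33. Probe sets of a gene can report different transcript ends or isoforms, and which ones they report was not tested.

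**Figure D4:**
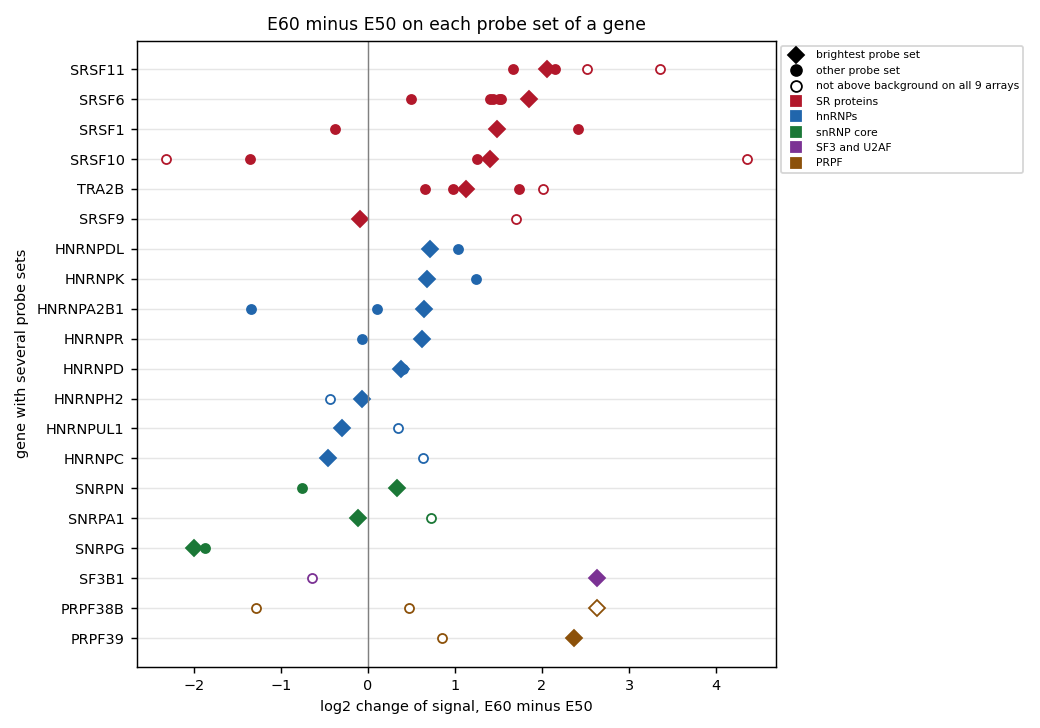
Change of log2 signal, E60 minus E50 (x axis), on every probe set of the 20 splicing factor genes that have several (y axis). Diamonds are the brightest probe sets, circles the others, open symbols were not above background on all 9 arrays and colours give the groups. All symbols of SRSF11, SRSF6 and TRA2B lie right of 0 and both of SNRPG left of it, whereas those of SRSF10 range from -2.32 to 4.35.

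At E70 against E60 none of the 58 genes was called by limma, with 0 higher and 0 lower. Of all probe sets 0.0833% were called as higher and 0.338% as lower, so that few calls were made anywhere. The 58 changes ran from -0.90 (SNRPB2) to 0.77 (SF3B2), with a median of 0.02. Their SE had a median of 0.25, and for 39 of the 58 genes the 95% interval of the change lay within 1 log2 unit of 0. For 11 genes every E70 array was above every E60 array and for 12 every one was below, against 15.7% and 12.4% of all probe sets.

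At an unadjusted p under 0.05 the limma fit of all arrays gave 4 genes, SNRPB2, PRPF18, SF3B2 and SF3B4 (7.73% of all probe sets). They are named here because of their values. The count of splicing factor genes at this threshold depended on the fit. It was 13 with the E70 and E60 arrays alone, 15 with array weights and 12 with eBayes fitted with a trend and robustly. The matching shares of all probe sets at this threshold are not given for these settings, so the counts were not compared with them. Calls at an adjusted p under 0.05 were also more numerous among all probe sets in these fits. They were 186 higher and 234 lower with the E70 and E60 arrays alone. With array weights they were 429 and 505, with trend and robust 145 and 262, and in the limma fit of all arrays 20 and 81. The larger counts are therefore not taken as a result about splicing factor genes. SNRPB2, a U2 snRNP protein, had 669, 653 and 909 at E70 and 1469, 1318 and 1340 at E60, with no overlap. Its change was -0.90 ± 0.23 (SE, limma adjusted p = 0.277). It was called with array weights (adjusted p = 0.0376) and with eBayes fitted with a trend and robustly (adjusted p = 0.0302). In a fit of the E70 and E60 arrays alone its adjusted p was 0.0921.

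Several genes called at E60 against E50 had changes smaller than their SE in the later step. TRA2A changed by -0.02 ± 0.24, SRSF11 by -0.15 ± 0.22, HNRNPA3 by 0.13 ± 0.22 and SNRPG by -0.23 ± 0.28 at E70 against E60 (SE), and none of these passed the test. The difference between the steps, E70 minus E60 less E60 minus E50, was called for 4 of the 58 genes, against 1.99% of all probe sets. These were SF3B4 (2.79, limma adjusted p = 0.0273), SF3B1 (-3.20, limma adjusted p = 0.0349), SRSF11 (-2.21, limma adjusted p = 0.0396) and TRA2A (-2.15, limma adjusted p = 0.0498). That count was 0 when any E60 or E70 array was left out, and 7 without the third E50 array. For the remaining genes it was not shown that the steps differed.

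At E70 against E50, 13 of the 58 genes rose and 7 fell, against 8.16% and 10.6% of all probe sets, with a median of 0.50 against -0.11 for all probe sets. With dim probe sets left out 18 rose and 7 fell, against 14.9% and 13.8% of the probe sets kept. The median relative to that of all probe sets was then 0.23, against 0.61 with all kept. Without any of the E70 arrays 5 to 7 genes rose. With each array centred on its median the split was 33 higher and 2 lower, against 19.7% and 4.74% of all probe sets. This comparison shares its E50 arrays with that of E60 against E50, so the overlap of their calls is not independent support: 16 genes were called in both, 1 (TRA2B) only at E60 and 4 (SRSF4, HNRNPH3, SNRPB2 and SNRPD1) only at E70. The rises were 6 SR proteins, 3 hnRNPs, 3 SF3 genes and PRPF39, and the falls 5 snRNP core genes and 2 SF3 genes.

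Of the shared calls at E70 against E50, TRA2A changed by 2.10 (4.30-fold), SRSF11 by 1.91, SRSF6 by 1.68, SRSF1 by 1.50, HNRNPA3 by 1.70 and SF3B1 by 2.06. SNRPG changed by -2.24 and SNRPF by -2.35, the largest fall of the 58 genes in this comparison. The calls of TRA2A, SRSF11, HNRNPA3, SNRPF and SNRPG held in all 20 alternatives. SRSF6 was not called without the second or the third E70 array (adjusted p up to 0.0602, and 0.00115 to 0.0721 over the alternatives), SRSF1 was not called with array weights (0.0559, lowest 0.000185), and SF3B1 was not called with the mean of its probe sets (0.720, lowest 9.21e-05).

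The remaining shared calls at E70 against E50 were SRSF10 at 1.03, HNRNPM at 0.85, SF3B5 and SF3A3 at 1.08 each, PRPF39 at 2.06, SNRPD3 at -1.12, SF3B4 at -1.56 and SF3B6 at -1.05. SF3B4 kept its call whichever array was left out and lost it with median centring (limma adjusted p = 0.0575, lowest 0.00124). Leaving out any E60 or E70 array ended the calls of SRSF10, HNRNPM and SF3B5, as did leaving out the first or the second E50 array for SRSF10, the second for HNRNPM, and the first or the third for SF3B5. Their adjusted p then reached 0.138 for SRSF10 (0.00377 to 0.458 over the alternatives), 0.107 for HNRNPM (0.00214 to 0.139) and 0.145 for SF3B5 (0.00885 to 0.145).

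Leaving out any E70 array ended the call of SF3A3 at E70 against E50, with adjusted p up to 0.0706 (0.00141 to 0.0974 over the alternatives). That of SF3B6 was lost without the first or the second E70 array, with adjusted p up to 0.0653 (0.000592 to 0.391 over the alternatives). That of SNRPD3 was lost without the second or the third, with adjusted p up to 0.0573 (0.000309 to 0.297 over the alternatives), and that of PRPF39 without the first or the third, with adjusted p up to 0.0596 (0.00171 to 0.362 over the alternatives).

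Of the genes called at E70 only, SRSF4, an SR protein with a long arginine and serine rich tail, had 3398, 3669 and 3010 at E70 and 1430, 1397 and 2158 at E50. All E70 arrays were above all E50 arrays, and its change was 1.04 ± 0.25 (SE, limma adjusted p = 0.0271). HNRNPH3, of the family that binds runs of guanines, had 6071, 2299 and 3800 at E70 and 1561, 1052 and 899 at E50. Its first E70 array was far above the others, and its change was 1.72 ± 0.40 (SE, limma adjusted p = 0.0248), or 3.30-fold. Leaving out any E60 or E70 array ended the call of SRSF4 (adjusted p up to 0.0884, and 0.00196 to 0.107 over the alternatives), and leaving out the first or the third E70 array ended that of HNRNPH3 (adjusted p up to 0.0794, and 0.00322 to 0.142 over the alternatives).

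SNRPB2 had 669, 653 and 909 at E70 and 1773, 1571 and 2046 at E50, a change of -1.28 ± 0.23 (SE, limma adjusted p = 0.0105) and a ratio of 0.411. SNRPD1, of the Sm ring, had 3536, 4006 and 3956 at E70 and 7066, 9574 and 8514 at E50, a change of -1.12 ± 0.21 (SE, limma adjusted p = 0.0125) and a ratio of 0.460. For both genes every E50 array was above every E60 array and every E60 array above every E70 array. Of the 5 core genes that fell, 4 encode Sm ring proteins (SNRPD1, SNRPD3, SNRPF and SNRPG), and with array medians aligned the core's median change of -0.78 became -0.07, with SNRPB2 at adjusted p = 0.132 (0.000515 to 0.132 over the alternatives) and SNRPD1 at 0.254 (0.00019 to 0.254).

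Other genes of splicing, of cleavage and polyadenylation, and of the exon junction and mRNA export were counted from lists drawn up beside the 58. Of 186 listed genes 108 were measured, and 26 rose and 5 fell at E60 against E50, 0 were called at E70 against E60, and 28 rose and 6 fell at E70 against E50. Of all probe sets 7.85% rose and 10.6% fell at E60 against E50, and 8.16% and 10.6% at E70 against E50. The median change at E60 against E50 was 0.26.

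Kinases that phosphorylate SR proteins were among them, and 2 of 4 rose at E60 against E50. CLK1 changed by 2.57 ± 0.19 (SE, limma adjusted p = 0.000925) and CLK4 by 1.67 ± 0.23 (SE, limma adjusted p = 0.00483), and both calls held in all 20 alternatives. Of 33 other splicing regulators 12 rose and 1 fell. MATR3, a nuclear matrix RNA-binding protein, changed by 2.15 ± 0.19 (SE, limma adjusted p = 0.0013), and KHDRBS3, a STAR family regulator, by -1.72 ± 0.28 (SE, limma adjusted p = 0.00848). The call of KHDRBS3 was lost in 2 of 20 alternatives, with adjusted p up to 0.0666. EWSR1 was called as higher with no E50 array above background, so no fold is given.

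Of 32 other spliceosome proteins 5 rose and 1 fell at E60 against E50. LUC7L3, a U1-associated protein, changed by 3.48 ± 0.49, SNW1 by 1.21 ± 0.27 and TXNL4A, of the U5 snRNP, by -1.60 ± 0.24 (SE, limma adjusted p = 0.00516, 0.0227 and 0.00648). Of 5 helicases 2 rose, DDX46 by 1.75 and DHX15 by 1.62, and DHX9 fell by 0.99 on the log2 scale. Of 12 cleavage and polyadenylation genes 4 rose and 0 fell, with PAPOLA, the poly(A) polymerase, at 1.03 and CPSF6 at 0.97. Of 12 exon junction and export genes UPF3B rose by 1.38 and NXT1 fell by 1.21 on the log2 scale, and of 10 SMN complex genes, which load Sm rings onto RNA, GEMIN6 fell by 1.75 on the log2 scale. The counts of 1 of 12 and 1 of 10 are near the shares of all probe sets. Of these calls DHX9 was lost in 8 of 20 alternatives, NXT1 in 10, PAPOLA in 7, SNW1 and CPSF6 in 6 each, GEMIN6 and UPF3B in 2 each and TXNL4A in 1, and with the mean of its probe sets UPF3B turned to -0.056.

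At E70 against E50 the same lists gave 2 rises and 0 falls among the kinases, 14 rises and 1 fall among the regulators, 4 and 3 among the other spliceosome proteins, 2 and 0 among the helicases, 5 and 0 among the cleavage and polyadenylation genes, 1 and 1 among the exon junction and export genes, and 0 and 1 in the SMN complex. MBNL3, a muscleblind regulator, changed by 2.82 ± 0.47 and LUC7L3 by 3.66 ± 0.49 (SE, limma adjusted p = 0.00783 and 0.00353). LSM6, of the ring on the U6 RNA, changed by -1.45, TXNL4A by -1.82 and MAGOH, an exon junction protein, by -0.84. The call of MAGOH was lost in 11 of 20 alternatives and that of LSM6 in 3, and with the mean of its probe sets LSM6 was at 0.0053. SART1, a tri-snRNP protein, was called as higher with no E50 array above background, so no fold is given.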

How the data were processed

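Affymetrix Porcine Genome Arrays were hybridised with biotin-labelled cRNA, and the authors computed 1 MAS 5.0 signal per probe set in GeneSpring. The deposited table holds these intensity values on a linear scale, scaled so that the trimmed mean of each array is 500.1. Values under 1 were set to 1, log2 was taken, and 124 AFFX controls were set aside. The 58 symbols matched the RefSeq gene table by Entrez number. Stages came from the labels. One limma 3.58.1 fit in R 4.3.3 (lmFit, eBayes with a constant prior) of all 9 arrays gave the F test and the contrasts, and it was tested on simulated data. Genes were named when called, or when in SF3A, SF3B, U2AF or TRA2. Array values are given for up to 4 called rises and falls per group and contrast, and for some genes chosen after their values were seen. Up to 2 genes in each direction were named per other list. The members and lists were chosen with earlier results of these data known. There is no read depth on arrays; precision is limited by how many there are and how far signals exceed background. Alternatives were 3 scalings, 2 treatments of low values, a filter on dim probe sets, another eBayes prior, a replicate block, probe set means, pairs of stages alone and each array left out. Array weights and a minimum change of 1 were added after seeing the data. No sequence table was used here.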

Additional observations from a re-analysis of the deposited data

How the results depend on the processing

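None of the called changes of the 58 genes reversed in the alternatives run. Of the alternative values for called genes 591 kept the call and 149 lost it. The 19 genes called over the 3 stages became 12 with array weights, 32 with eBayes trend and robust, 31 with median centring, and 10 to 20 with 1 array left out. At E60 against E50 the 12 rises became 24 with trend and robust, 29 with median centring, 6 with the E60 and E50 arrays alone, and 7 to 14 with 1 array left out, and the 5 falls became 3, 2 and 3 with array weights, median centring and those arrays alone, and 2 to 7 with 1 array left out. Of all probe sets 10.9%, 19.5% and 3.58% rose with trend and robust, median centring and the E60 and E50 arrays alone. Falls were 3.11%, 3.80% and 5.12% of all probe sets with array weights, median centring and those arrays alone. At E70 against E60 the 0 falls became 1 with array weights and 1 with trend and robust. Of all probe sets 2.10% and 1.09% fell in these settings. At E70 against E50 the 13 rises became 6, 24, 33 and 5 with array weights, trend and robust, median centring and the E70 and E50 arrays alone, and 5 to 14 with 1 array left out, and the 7 falls became 4 with array weights, 2 with median centring and 3 with those arrays alone (5 to 7 with 1 array left out). The 4 differences between the steps became 7, 15, 1, 7 and 1 with array weights, trend and robust, probe set means, median centring and quantile normalization, and 0 to 7 with 1 array left out. At E70 against E50, 4.78% and 11.6% of all probe sets rose with array weights and with trend and robust. With median centring and the E70 and E50 arrays alone it was 19.7% and 3.03%. Falls were 3.62%, 4.74% and 4.79% with array weights, median centring and those arrays alone. Shares for the F test and the steps are not given in these settings, so those counts were not compared with them. With probe set means UPF3B at E60 against E50 was -0.056, LSM6 at E70 against E50 0.0053 and SRRM1 at E60 against E50 -0.20. The cause of these differences was not tested, and the reduced fits also had fewer arrays. The median change of all probe sets was -0.18 at E60 against E50 and -0.11 at E70 against E50. It was 0.60 and 0.60 with median centring, and 0.0006 and 0.04 with quantile normalization.

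Replicate numbers did not pair the arrays: same-numbered arrays had correlations of -0.02 to 0.03 in their deviations from stage means. With the replicate block 9 genes were called over the 3 stages, 8 rose and 4 fell at E60 against E50, 0 and 0 at E70 against E60, 8 rose and 6 fell at E70 against E50, and 0 differed between the steps.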
